A study of Mus musculus with 24 samples.

Results

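Transgenic liver was compared with wild-type liver in the libraries whose titles end in 4, called class 4 here. These are 8 of the 24 RNA-seq libraries of the series: 4 wild type (WT, numbers 1 to 4) and 4 transgenic (TGA, numbers 1 to 4). All come from liver of mice of strain C3H/HeJ, and the genotype label gives only wild type or transgenic. The labels name neither the transgene nor its promoter, and they give no age and no treatment. The meaning of the title endings 2, 4 and 8 is not labelled either, although the series title speaks of polyploid hepatocytes in chronic liver disease. Nothing in the labels says that the 4 libraries of a group come from separate mice, so every p-value measures only the spread between libraries, which may be technical.

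Hepatocytes are the parenchymal cells of the liver. They secrete most plasma proteins, detoxify ammonia and xenobiotics, and balance glucose, lipids and amino acids. Many of them become polyploid as the animal matures, mostly when a cell replicates its DNA and then fails to complete cytokinesis. Anln encodes anillin, a scaffold protein of the cleavage furrow whose loss makes hepatocytes more polyploid. It was listed at 0 in all 8 class 4 libraries.

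Values are given as log2(normalised count + 1), obtained from the deposited natural log values, and differences are TGA minus WT on that scale. Sequencing depth is unknown. The number of genes above 0 served as the only measure of how much each library held. In WT it was 14469 in library 1, 4490 in library 2, 2145 in library 3 and 2332 in library 4. In TGA it was 2434, 1624, 3440 and 2867 in libraries 1 to 4. The medians were 3411 genes in WT, 2332 without library 1, and 2650.5 in TGA. A two-sided exact permutation test of the mean number gave p = 0.343 with all 8 libraries and p = 0.686 without WT library 1. Of the class 4 values of the 4875 tested genes, 59.3% were 0. Among genes that every cell uses, Actb (beta-actin) was at 0 in 2 WT and 4 TGA libraries, Gapdh (glycolysis) in 3 and 3, and Eef1a1 (translation elongation) in 1 and 2. Absence of expression cannot be read from a 0 in these files. For this reason the value of each library is printed, and a gene that is at 0 throughout one group is given no fold change.

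WT library 1 stood apart in a second way. Its column held every one of the genes detected in TGA libraries 3 and 4 (3440 and 2867 genes, 0 absent). Of the genes detected in the other class 4 libraries, 28.3% (WT 2), 18.7% (WT 3), 20.8% (WT 4), 17.3% (TGA 1) and 14.8% (TGA 2) were absent from it. Some genes were detected in a single library when WT library 1 of class 4 and of class 2 are set aside. All 411 such genes of TGA 3 and all 209 of TGA 4 had a value in WT 1, against 9 of 587 for WT 2, 5 of 137 for WT 3, 0 of 169 for WT 4, 2 of 146 for TGA 1 and 0 of 82 for TGA 2. Across genes, which are not independent replicates, its Pearson correlation was 0.61 with TGA 3 and 0.63 with TGA 4, while TGA 3 and TGA 4 correlated at 0.26 with each other. With its own group it correlated at 0.28, 0.23 and 0.19. Over the whole series it held every gene of 5 libraries, the 20th to 24th in the sample list, where it is itself the second. The first in that list, WT library 1 of class 2, held every gene of the 10 libraries in places 10 to 19. The largest share of one library's genes found in another, over all other pairs, was 74.5%.

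**Figure D1:**
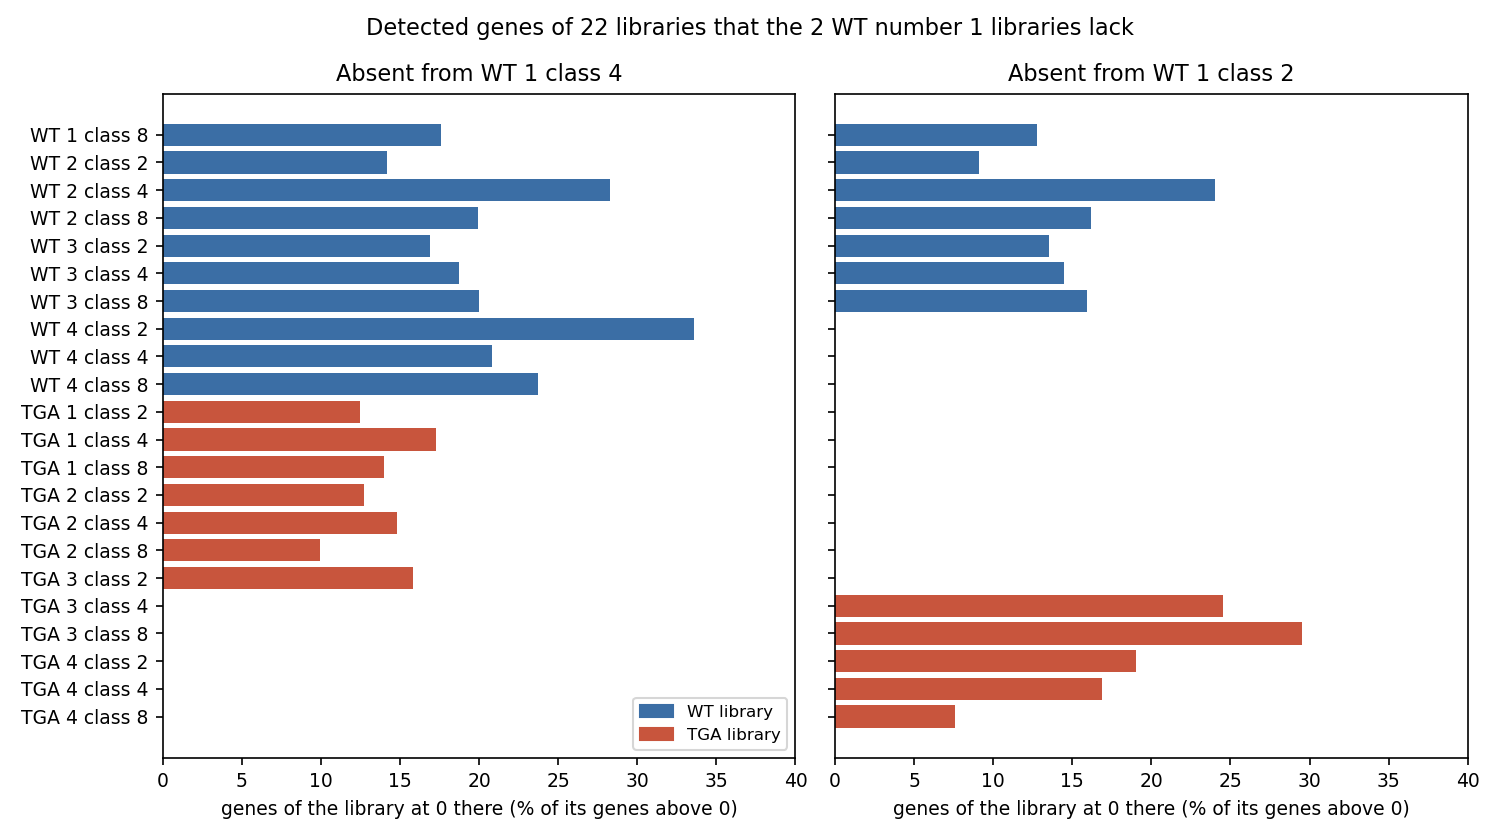
Bars give the percentage of the genes detected in each of 22 libraries (rows, blue WT and red TGA) that are at 0 in WT library 1 of class 4 (left) or of class 2 (right). TGA 3 and TGA 4 of class 4 have no bar on the left, since 0 of their genes are absent there, while the other class 4 libraries lie between 14.8% and 28.3%.

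The files do not show whether the values of WT library 1 come from WT liver alone, and every difference that uses them has this limit. Each result is therefore given from the fit to all 24 libraries, as planned, and from a fit to 22 libraries without WT library 1 of classes 4 and 2. The second fit was chosen after these values were seen. It leaves 3 WT against 4 TGA libraries in class 4.

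With all 24 libraries, 1 gene was higher in TGA at an adjusted p under 0.05 (limma, a linear model with pooled spread, Benjamini-Hochberg over 4875 genes), which is 0.0205% of the genes tested, and 0 genes were lower (0%). At an unadjusted p under 0.05, 77 genes were higher (1.58%) and 130 lower (2.67%). With 22 libraries, 5 genes were higher (0.103%) and 3 lower (0.0615%). Before adjustment, 185 (3.79%) and 205 (4.21%) then had p under 0.05. The values of the groups did not overlap for 2 genes higher (0.041%) and 43 genes lower in TGA (0.882%) with 4 WT libraries. With 3 WT libraries they did not overlap for 43 higher (0.882%) and 116 lower (2.38%). Whatever their p, 2019 of the 4875 tested genes had higher and 2812 lower values in TGA with 24 libraries. With 22 libraries 2217 were higher, 2037 lower and 621 equal. Counts of higher and lower genes within lists are to be read beside these. The median difference over all tested genes was -0.15 with 24 libraries and 0 with 22. Centring each library on its mean moved the first to 0.02, and the split at the unadjusted threshold to 105 genes higher and 95 lower.

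The gene that passed in both fits was Mir6236, annotated as a microRNA gene. As it leads the class 4 comparison, its mature sequence is shown as RefSeq gives it (GRCm38.p6, chromosome 9, plus strand, 110281353 to 110281371, 19 bases), 5′ to 3′, with the seed, bases 2 to 8, in capitals.
mmu-miR-6236: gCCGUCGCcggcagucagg
Its value was 16.41 in each of the 4 TGA libraries and in WT 1, 13.27 in WT 2 and 14.32 in both WT 3 and WT 4. All TGA libraries thus lay above WT 2, 3 and 4 and were equal to WT 1. The difference was 1.83 with 24 libraries (SE 0.37, adjusted p = 0.0471, limma) and 2.44 with 22 (SE 0.34, adjusted p = 6.45e-05, limma). The value 16.41 is the highest in the whole table, called its ceiling below, and libraries share such top values to the decimal. The ties are therefore between ranks, and no spread between the 4 TGA libraries can be read from them. Mir6236 was the top gene of these 5 libraries among all 35974 genes. The top gene was instead Rorb, a nuclear receptor, in WT 2 (15.45) and Cyb5r3, a cytochrome b5 reductase, in WT 3 and WT 4 (15.54). No gene of WT 2, 3 or 4 thus reached the ceiling, which limits what the size of the Mir6236 difference says. With all 24 libraries the call of Mir6236 held in 4 of 20 alternatives, and its difference ran from 1.39 to 2.44. Whether the reads counted for it come from the mature microRNA was not tested.

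The other 4 genes called higher in TGA without WT 1 are known for their expression in hepatocytes. Apoa1 encodes apolipoprotein A-I, the main protein of high-density lipoprotein, which the liver secretes. It stood at 12.08, 10.52, 12.98 and 13.71 in TGA 1 to 4 and at 8.65, 8.50 and 7.87 in WT 2 to 4, so that these groups did not overlap. In WT 1 it was 13.42, inside the TGA range. The difference was 3.98 with 22 libraries (SE 0.75, adjusted p = 0.0075, limma) and 2.71 with 24 (SE 0.89, adjusted p = 1, limma).

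Cps1, the mitochondrial carbamoyl phosphate synthetase that starts the urea cycle, was listed at 0 in WT 2, 3 and 4. In TGA 1 to 4 it stood at 5.61, 8.23, 9.40 and 7.96, and in WT 1 at 9.22. Its adjusted p was 0.0075 with 22 libraries and 0.706 with 24 (limma). Fmo1, a flavin-containing monooxygenase that oxidises xenobiotics, followed the same pattern. It was at 0 in WT 2, 3 and 4, at 5.47, 7.72, 8.89 and 7.58 in TGA and at 8.22 in WT 1, with adjusted p-values of 0.00789 (22 libraries) and 0.706 (24 libraries, limma). Both genes are thus listed at 0 in every WT library except the one that also holds all genes of TGA 3 and TGA 4.

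Aldh1l1 encodes cytosolic 10-formyltetrahydrofolate dehydrogenase, an enzyme of the folate pool. It varied little in TGA, at 8.59, 7.97, 8.87 and 8.34, and was 3.52 in WT 2, 0 in WT 3 and WT 4 and 8.44 in WT 1. The difference was 7.27 with 22 libraries (SE 1.46, adjusted p = 0.0119, limma) and 5.45 with 24 (SE 1.63, adjusted p = 0.823, limma).

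**Figure D2:**
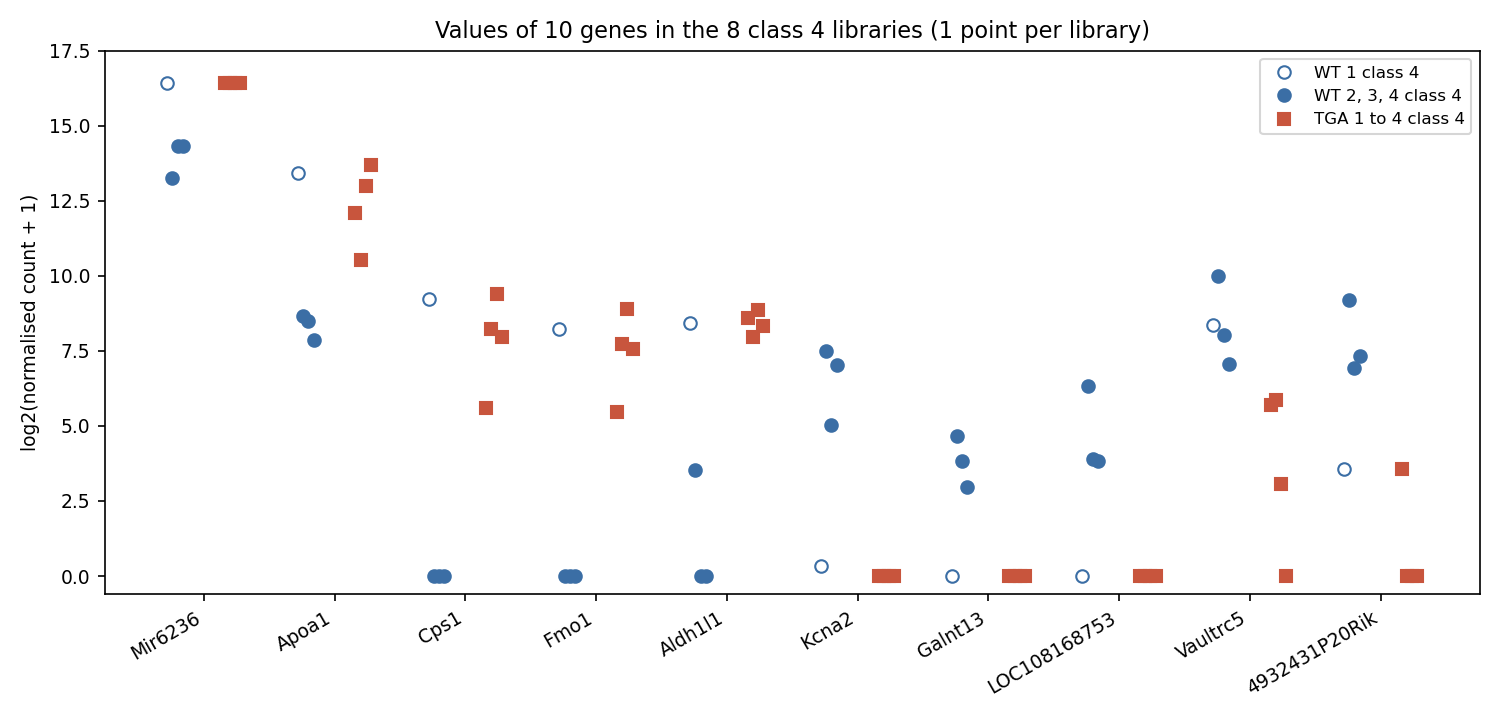
Each point is the log2(normalised count + 1) of 1 library for 10 genes: open circles are WT 1, filled circles WT 2 to 4 and squares TGA 1 to 4. WT 1 lies with TGA for Mir6236, Apoa1, Cps1, Fmo1 and Aldh1l1, and at or near 0 with TGA for Kcna2, Galnt13 and LOC108168753. All of these but Mir6236 were called only without WT 1, a choice that favours such a place for it.

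The 3 genes called lower in TGA without WT 1 were listed at 0 in all 4 TGA libraries. Kcna2 and LOC108168753 reached the value required for testing in WT libraries only. Galnt13 reached it only in WT 2 to 4 of class 4 and in TGA 1 of class 2. None of the 3 would have been tested without its WT values, which favours a lower value in TGA. Kcna2, a voltage-gated potassium channel subunit known mainly from neurons, stood at 7.49, 5.03 and 7.03 in WT 2 to 4 and at 0.35 in WT 1 (adjusted p = 0.0119 with 22 libraries and 0.65 with 24, limma). Galnt13, a glycosyltransferase that starts mucin-type O-glycans, stood at 4.65, 3.84 and 2.97 in WT 2 to 4 and at 0 in WT 1 (adjusted p = 0.0333 and 0.65, limma). LOC108168753, a locus without a gene name, stood at 6.32, 3.90 and 3.82 in WT 2 to 4 and at 0 in WT 1 (adjusted p = 0.0353 and 0.706, limma). For all 3 genes WT 1 was on the TGA side. They were called only without WT 1, and such a choice favours genes of this kind.

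Some of these values recur across genes. The most frequent value above 0 was 3.90 in WT 3 and 3.82 in WT 4, which are the values of LOC108168753 there. The same values were found for Scn2a (a sodium channel subunit), Gm4737 and Otx1 (a homeobox transcription factor), all at 0 in the 4 TGA libraries and without a call (adjusted p = 0.153, 0.125 and 0.153 with 22 libraries, limma). Over all tested genes, 38 were above 0 in WT 2, 3 and 4 and at 0 in all TGA libraries. Of these 38, 14 were at the most frequent value in WT 3, 13 in WT 4 and 5 in WT 2. WT 1 held 27 of the 38, while it was at 0 for only 249 of all 4875 tested genes (5.11%). In the other direction 12 genes were at 0 in WT 2, 3 and 4 and above 0 in all TGA libraries. WT 1 held all 12, which was fixed in advance, since its column held every gene detected in TGA 3 and TGA 4. These 12 include, beside Cps1 and Fmo1, Ces3a (a carboxylesterase of liver), Arfgap2 (Golgi transport) and Slc38a10 (an amino acid transporter family member), which did not pass. Arfgap2, for example, stood at 5.87, 6.03, 6.69 and 4.05 in TGA and 6.57 in WT 1 (adjusted p = 0.153 with 22 libraries, limma).

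**Figure D3:**
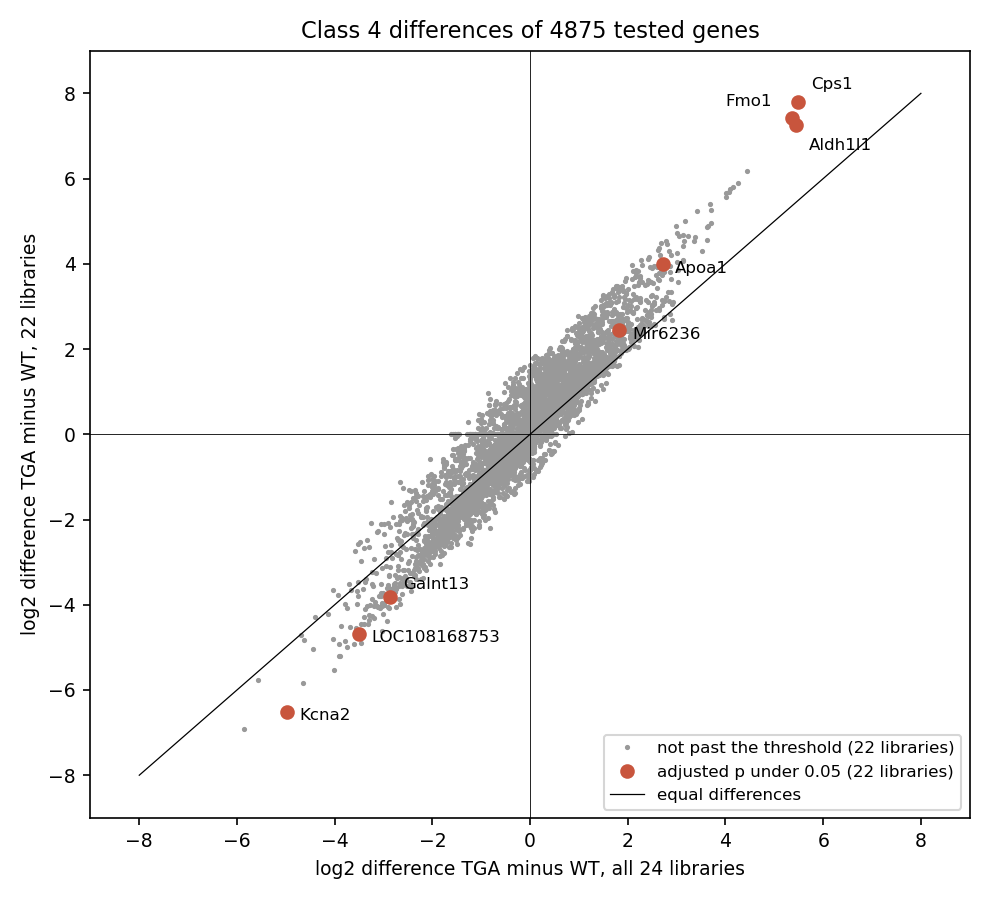
Each point is 1 of the 4875 tested genes, with its log2 difference TGA minus WT fitted with all 24 libraries (x axis) against that with 22 libraries (y axis). The line marks equal differences, and the 8 larger points are the genes called with 22 libraries, for each of which the difference is farther from 0 without WT 1. All but Mir6236 were called only without WT 1, a choice that favours this. Where a group is listed at 0 throughout, the plotted difference is a fitted value and no measure of size.

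Lyar, Scn2a, Gm4737 and Otx1, at 0 in all TGA libraries, were among the uncalled genes with the smallest p. Others with lower values in TGA were measured in more libraries. Vaultrc5, a vault RNA of the cytoplasmic vault particle, stood at 8.35, 9.98, 8.02 and 7.07 in WT 1 to 4 and at 5.71, 5.86, 3.05 and 0 in TGA 1 to 4. It is one of the genes whose groups did not overlap with or without WT 1, and its difference was -4.70 in both fits (adjusted p = 0.264 with 24 libraries and 0.125 with 22, limma). 4932431P20Rik, a locus without an assigned function, stood at 3.57, 9.19, 6.92 and 7.33 in WT and at 3.57, 0, 0 and 0 in TGA (adjusted p = 0.65 and 0.0648, limma). WT 1 and TGA 1 had the same value there.

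Scd1, the stearoyl-CoA desaturase that makes monounsaturated fatty acids, stood at 7.03, 8.34, 7.79 and 5.98 in WT and at 4.01, 5.36, 2.48 and 3.81 in TGA. The groups did not overlap, and the difference was -3.37 with 24 libraries (SE 1.22, adjusted p = 1, limma) and -3.46 with 22 (SE 1.25, adjusted p = 0.397, limma). Pigr, the receptor that carries polymeric immunoglobulin A across epithelia, stood at 12.98, 13.42, 14.16 and 13.27 in WT and at 13.42, 10.48, 11.73 and 12.32 in TGA. TGA 1 lay inside the WT range, and the difference was -1.47 (adjusted p = 1, limma) and -1.63 (adjusted p = 0.397, limma). Gm31305, a predicted gene, stood at 12.98, 13.42 and 12.98 in WT 2 to 4 and at 10.10 in WT 1. Its TGA values were 12.32, 10.28, 10.04 and 10.10, so WT 1 had the value of TGA 4 (adjusted p = 1 and 0.122, limma).

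Among genes with higher values in TGA and no call, Alb, which encodes albumin, stood at 9.53, 8.81, 0 and 0 in WT and at 9.38, 7.76, 9.41 and 8.79 in TGA (adjusted p = 1 and 0.219, limma). WT 2 thus lay inside the TGA range, and albumin was listed at 0 in WT 3 and WT 4. Egfr, the epidermal growth factor receptor, stood at 7.15, 0.66, 0 and 0 in WT and at 5.61, 7.29, 6.89 and 5.81 in TGA (adjusted p = 1 and 0.243, limma). Hyou1, a chaperone of the endoplasmic reticulum, stood at 6.91, 2.81, 0.78 and 0 in WT and at 6.61, 7.37, 3.29 and 6.18 in TGA (adjusted p = 1 and 0.283, limma).

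Hepatocyte markers were described as a list, of which 14 of 15 genes were tested. With 22 libraries 12 had higher and 2 lower values in TGA, with a median difference of 2.03 against 0 over all tested genes, and 2.23 over the 7 that were above 0 in both groups. In this list 2 genes were called, Cps1 and Apoa1, and 5 had higher values at an unadjusted p under 0.05, against 0.103% and 3.79% of all tested genes, the others being Alb, Fga (fibrinogen alpha chain) and Trf (transferrin). With 24 libraries 11 were higher and 3 lower, and the median was 1.04. The mean over the 14 genes was 7.84 in WT 1, 4.05, 2.65 and 2.71 in WT 2 to 4 and 4.90, 5.01, 5.57 and 6.39 in TGA. WT 1 was the highest of all 8, and WT 2 to 4 lay below every TGA library. Fgb (fibrinogen beta chain) and Ttr (transthyretin) had lower values in TGA. Fgb stood at 6.35, 7.57, 0 and 0 in WT and at 0 in all TGA libraries, and its adjusted p with 22 libraries was 0.764 (limma).

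Most lists of hepatocyte function moved with WT 1, and so did some lists outside it. The median differences of plasma carrier proteins were -0.48 with 24 libraries and 0.71 with 22. Those of apolipoproteins were -0.07 and 0.64, of periportal genes -0.18 and 0.52, of fatty acid oxidation -0.21 and 0.98, and of the urea cycle -0.08 and 0.82, so the sign of these 5 medians over all tested members turned when WT 1 was left out. Over the members above 0 in both groups, the medians were 0.02 and 1.10 for carriers, 0.12 and 1.03 for apolipoproteins, 0.23 and 1.47 for periportal genes and 0.38 and 1.59 for the urea cycle, against 0.18 and -0.34 for all such genes. For fatty acid oxidation they were 0.14 and -0.97, the opposite sign to its median over all members with 22 libraries. The paired medians rest on different sets of genes. With 24 and 22 libraries these were 9 and 8 carriers, 10 and 9 apolipoproteins, and 18 and 13 periportal genes. They were 6 and 2 genes for the urea cycle, 16 and 5 for fatty acid oxidation, and 3549 and 2267 over all. The carrier median with 22 libraries was -0.43 when WT 3 was left out as well. Cholesterol and bile acid metabolism had lower values in TGA in both fits, with medians of -0.93 (2 higher and 9 lower of 11) and -1.14 (3 higher and 6 lower), and 0 calls. Within the urea cycle list, 6 of 8 tested genes had higher values in TGA with 22 libraries and 0 lower, but only Cps1 was called. Nags, Asl and Arg1 counted as higher on 1 TGA library each, with 3 TGA libraries and WT 2 to 4 at 0. Over all 4875 tested genes, 2217 were higher, 2037 lower and 621 equal with 22 libraries. Ass1 (argininosuccinate synthase) stood at 6.76, 0, 6.46 and 0 in WT and at 0, 5.94, 4.65 and 6.44 in TGA, so its groups overlapped; its difference of 0.95 with 24 libraries was -0.15 without WT 2 or without WT 4. Of the cytochrome P450 genes, 12 of 17 tested had higher and 2 lower values with 22 libraries (median 1.09, and 0.15 with 24), with 0 calls. Cyp2f2, a lung and liver P450, stood at 7.33, 1.85, 0 and 0 in WT and at 8.13, 6.72, 3.64 and 7.03 in TGA (adjusted p = 1 and 0.245, limma). Pericentral genes had a median of 0 in both fits, with 7 higher and 4 lower of 16 with 22 libraries. Outside hepatocyte function, the medians with 24 and 22 libraries were -0.58 and 0.57 for housekeeping genes. They were 0.34 and 1.17 for cytosolic ribosomal proteins and -0.04 and 1.02 for antioxidant genes. Some lists moved the other way, such as hepatic stress, fibrosis and fetal genes, at -1.01 and -1.59.

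Mitochondrial-encoded transcripts had lower values in TGA for 7 of 7 tested genes in both fits, with medians of -1.58 (24 libraries) and -1.69 (22), and 0 calls. ND1, a subunit of respiratory complex I, stood at 9.50, 9.47, 11.10 and 9.33 in WT and at 7.97, 0, 9.98 and 9.33 in TGA. TGA 2 held 0 for ND1, ND2 and ND4 alike and had the fewest genes of all class 4 libraries, 1624. Without it the median was -0.30 with 24 libraries and -0.43 with 22, and 6 of 7 genes were lower. The 3 remaining TGA libraries had list means of 9.10, 10.57 and 9.64, against 9.53, 9.50, 11.65 and 9.52 in WT, and the groups overlapped.

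Small structural RNAs (vault, 7SK, 7SL, ribonuclease P and MRP, minor spliceosomal and telomerase RNAs) had lower values in TGA for 8 of 9 tested genes with 24 libraries (median -1.18) and for 7 of 9 with 22 (median -1.03), with 0 calls. Beside Vaultrc5, Rn7s1, a 7SL RNA of the signal recognition particle, stood at 7.04, 8.89, 8.49 and 8.91 in WT and at 4.77, 6.75, 2.68 and 7.54 in TGA. TGA 4 overlapped WT 1, and without WT 1 all of WT lay above TGA. Rn7s1 and Rn7s2 are near-identical copies between which reads may be split. Rn7sk, the 7SK RNA that restrains the elongation factor P-TEFb, had the opposite sign, at 8.96, 4.24, 0 and 0 in WT and 5.10, 5.78, 7.05 and 7.24 in TGA. Rpph1, the RNA of ribonuclease P, stood between 11.26 and 12.56 in WT and between 10.25 and 12.08 in TGA.

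Of 19 tested genes for chaperones of the endoplasmic reticulum and the unfolded protein response, 6 were higher and 6 lower in TGA with 22 libraries, and 4 and 15 with 24. The other 7 with 22 libraries were above 0 in class 4 only in WT 1, and with 24 libraries they counted as lower through it alone. The leading genes of the list were Dnajb9, Hyou1 and Hspa5 (the chaperone BiP). Hspa5 stood at 6.16, 1.98, 0 and 0 in WT and at 5.69, 5.67, 3.27 and 6.12 in TGA, with an adjusted p of 0.394 with 22 libraries (limma). WT 1 lay above all TGA libraries for Hspa5, and inside the TGA range for Hyou1 and for Dnajb9, a co-chaperone of BiP (3.80, with TGA 3 at 0). Proliferation genes were hardly measured: 3 of 44 were tested, 1 higher and 2 lower, with 0 calls. The 20 tested tumour suppressors split evenly with 22 libraries, 9 higher and 9 lower, with 0 calls. Tsc1, which restrains growth signalling through mTOR, stood at 3.80, 5.04, 8.09 and 0 in WT and at 0, 0.89, 4.22 and 0 in TGA (adjusted p = 0.598 with 22 libraries, limma).

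**Figure D4:**
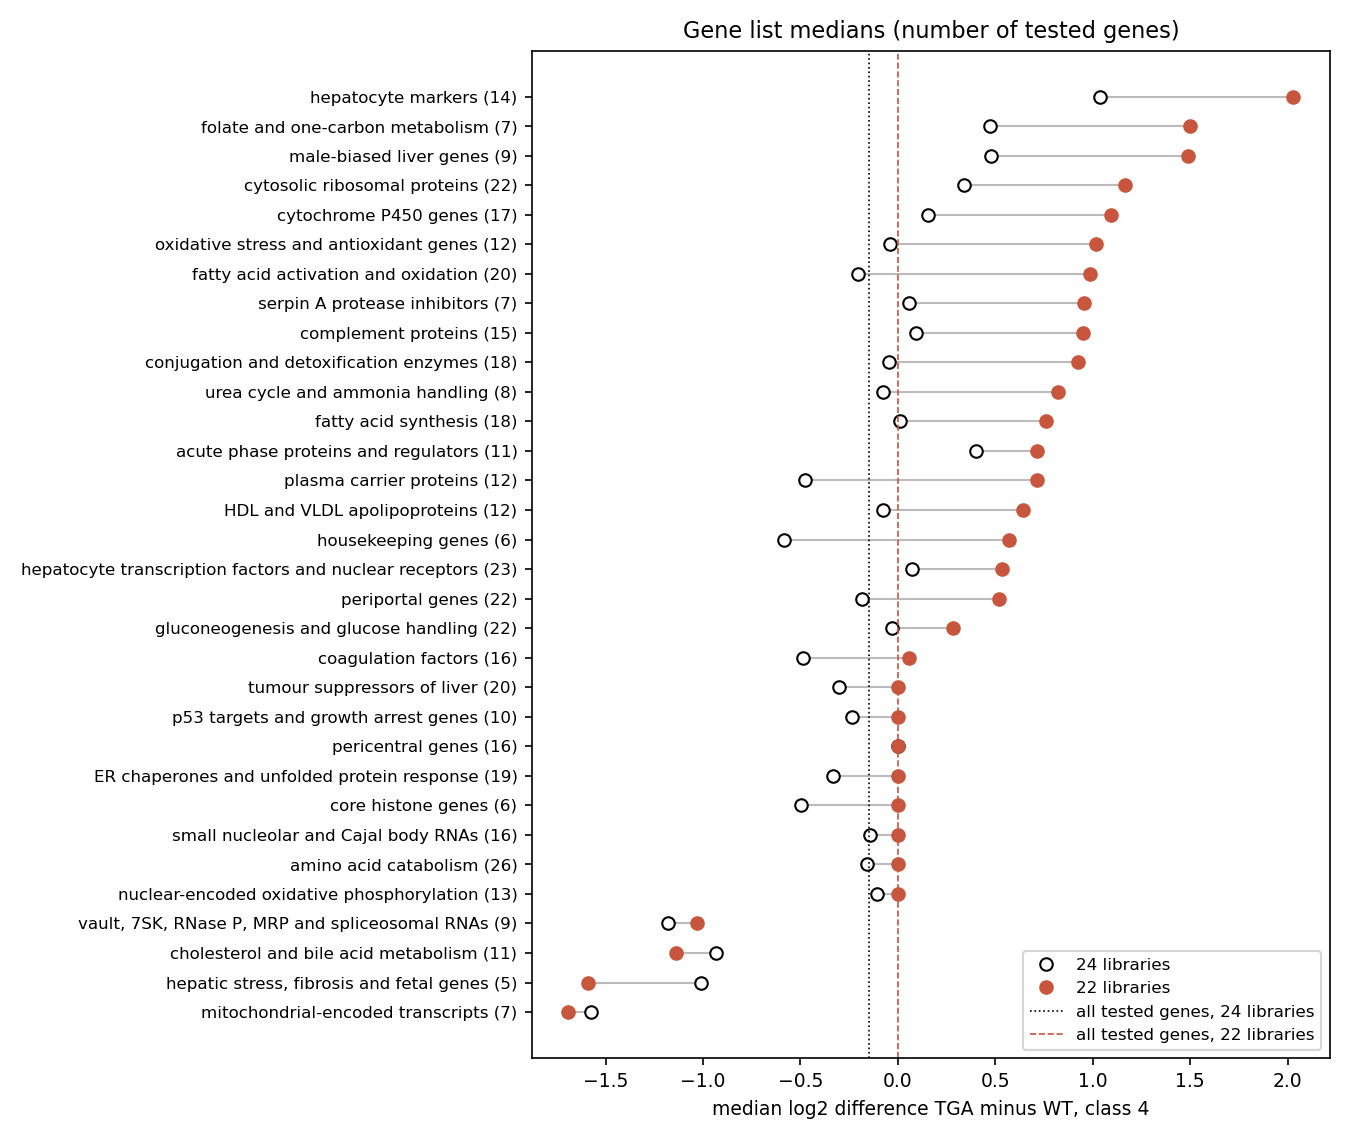
Points give the median log2 difference TGA minus WT of each list with at least 5 tested genes (number in brackets), open for 24 and filled for 22 libraries, and vertical lines give the same for all tested genes. Hepatocyte markers lie at 1.04 and 2.03, and mitochondrial-encoded transcripts at -1.58 and -1.69. Most lists of hepatocyte function lie farther right with 22 libraries than with 24, and so do housekeeping and cytosolic ribosomal protein genes.

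Few markers of other liver cells were measured. Of the Kupffer cell and macrophage list 0 of 16 genes were tested, and Adgre1, Cd68, Csf1r and Vsig4 were at 0 in all 8 libraries. The summed value of that list ran from 0 to 2.48 in WT and from 0 to 4.93 in TGA. Of the lymphocyte list 0 of 14 and of the erythroid list 0 of 8 genes in the table were tested, with both haemoglobin alpha and beta genes at 0 throughout. The sums ran from 0 to 7.32 in WT and from 0 to 4.71 in TGA for lymphocytes, and from 0 to 0.83 in WT and at 0 in TGA for erythroid cells. For neutrophil markers (1 of 12 tested) they ran from 0 to 13.4 and from 0 to 6.37, and for cholangiocyte markers (2 of 13 tested) from 0 to 8.92 and from 0 to 12.3. Stellate cell and fibroblast markers (2 of 17 tested) summed to between 5.30 and 9.53 in WT and between 5.71 and 11.3 in TGA.

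The endothelial list was the only one of these with 3 or more tested genes, 4 of 22, with 1 higher and 3 lower in TGA in both fits. The sums over the list ran from 8.43 to 12.5 in WT and from 0 to 10.9 in TGA. Pecam1 was at 0 in all 8 libraries. Bmp2, a growth factor of sinusoidal endothelium, stood at 0.73, 0, 4.66 and 3.82 in WT, and Stab2, a scavenger receptor of the same cells, at 0.36, 4.01, 3.90 and 0. Both were at 0 in all TGA libraries (adjusted p = 0.397 and 0.542 with 22 libraries, limma). Kdr, a receptor for vascular endothelial growth factor, had the opposite sign, at 2.72, 0.66, 0 and 0 in WT and at 0, 0, 0 and 6.79 in TGA (adjusted p = 0.797 with 22 libraries, limma). Its difference of 1.48 with 22 libraries was -0.22 without TGA 4. Whether a different share of endothelial cells has a part in the hepatocyte values was not tested. In these libraries fewer cells of a type and less RNA per cell cannot be told apart.

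The class 4 difference was set against that of the other title endings by an interaction term. With 24 libraries 0 genes differed from class 2 and 0 from class 8 (limma). Unadjusted p-values passed 0.05 for 77 genes with a higher and 232 with a lower difference than in class 2, and for 73 and 155 against class 8. With 22 libraries 1 gene, Mir6236, differed from class 2, by 2.59 (SE 0.48, adjusted p = 0.0191, limma), and 0 genes differed from class 8, with 91 and 290 genes against class 2, and 84 and 134 against class 8, past the unadjusted threshold. In class 2 Mir6236 stood at 15.54, 16.41 and 16.41 in WT 2 to 4 and at 16.41, 15.54, 15.54 and 16.41 in TGA. All 7 values thus lay between 15.54 and the ceiling.

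The called hepatocyte genes had higher values in TGA in the other endings as well, with no interaction called. For Apoa1 the differences with 22 libraries were 5.49 in class 2, 3.98 in class 4 and 3.95 in class 8. For Aldh1l1 they were 6.82, 7.27 and 4.12. Fmo1 overlapped in class 2, at 6.25, 7.13 and 5.92 in WT 2 to 4 and at 8.43, 6.73, 6.82 and 7.74 in TGA. Cps1 was at 0 in WT 1 and WT 2 of class 8 but stood between 6.09 and 7.36 in WT 2 to 4 of class 2, so the listing at 0 in all of WT 2 to 4 was found in class 4 and in neither other ending. Kcna2 stood at 4.45, 2.45, 3.17 and 1.97 in WT 1 to 4 of class 8, where its highest TGA value was 0.59. In class 2 its groups overlapped, at 1.25, 4.44, 0 and 0 in WT and at 0.23, 0, 1 and 0.82 in TGA. Galnt13 was at 0 in all WT libraries of classes 2 and 8 except for 0.13 in WT 1 of class 2 and 1.31 in WT 4 of class 8. In TGA 1 of class 2 it stood at 1.58, above all WT values of that class. Lyar, a nucleolar protein, was at 4.14, 6.07 and 7.26 in WT 2 to 4 and at 0 in TGA in class 4, while in class 2 it was at 0 in WT 2 to 4 and above 0 in 3 of 4 TGA libraries. Its interaction did not pass (adjusted p = 0.0762 with 22 libraries, limma).

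**Figure D5:**
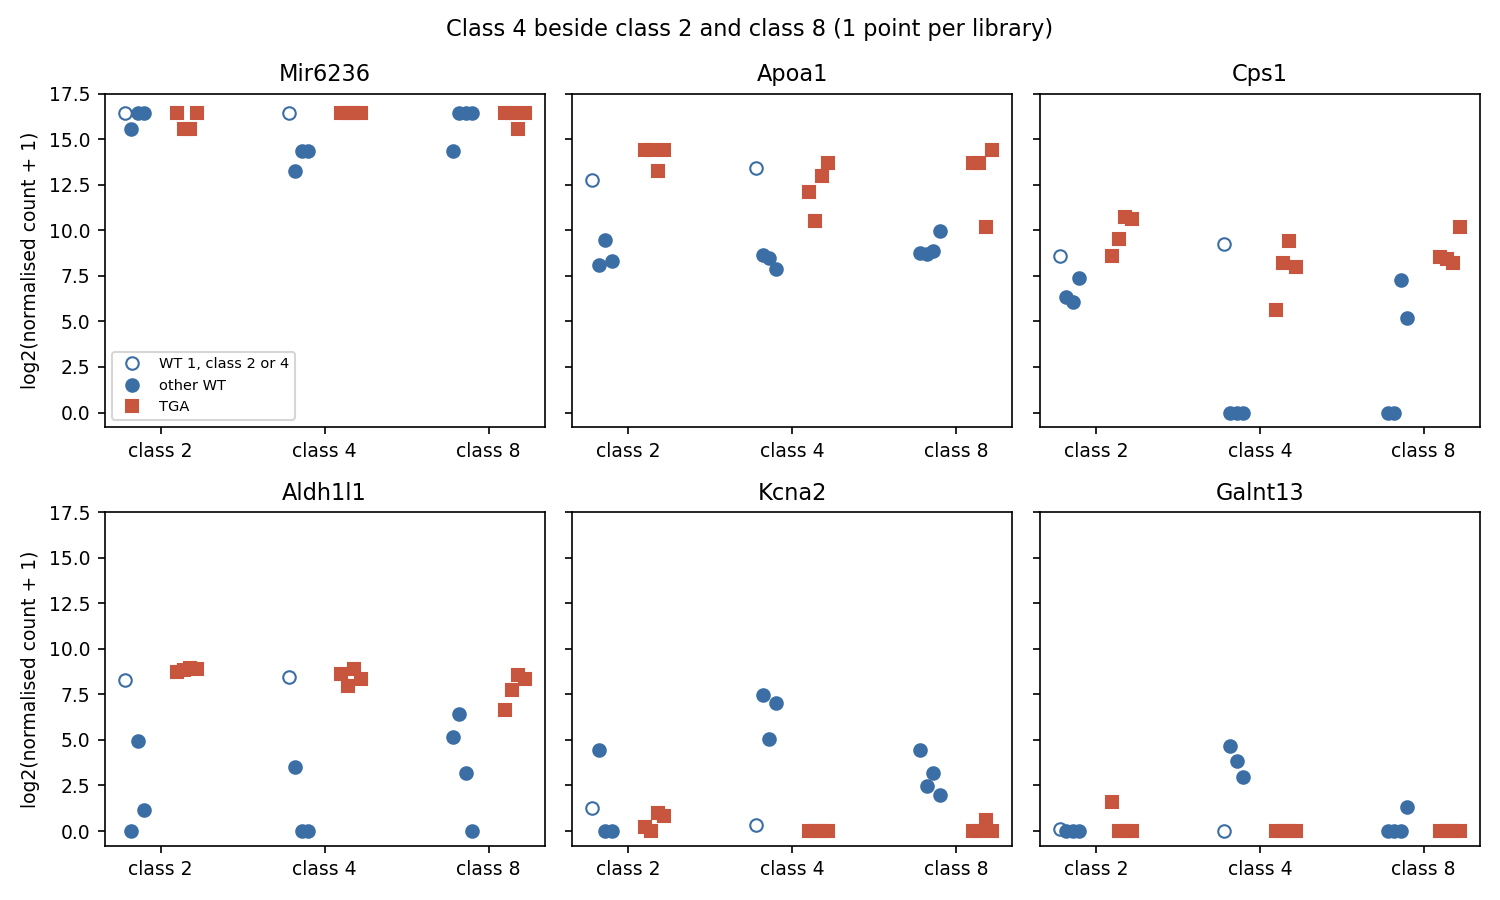
Each panel shows 1 gene, with log2(normalised count + 1) per library for classes 2, 4 and 8: circles are WT (open for WT 1 of classes 2 and 4) and squares TGA. Apoa1 and Aldh1l1 are higher in TGA than in the filled WT points in all 3 classes, and Mir6236 is below its ceiling of 16.41 in all filled WT points of class 4.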

How the data were processed

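Liver RNA was extracted with a kit for formalin-fixed tissue and made into NuGen libraries and sequenced as single-end reads, per the labels' protocols. TopHat, edgeR and genome build mm9 are named in the submitters' processing notes. Tool versions and details of counting, annotation and normalization were not given in the sources used here. The deposited values are natural log values per gene symbol, with no unit stated. From the values, of which libraries share the same steps at the top, they were read as natural logs of a quantile-normalised count + 1 and divided by the natural log of 2. The highest log2 value was 15.45 in WT 2, 15.54 in WT 3 and WT 4 and 16.41 in the other class 4 libraries. As these are not equal, quantile normalisation remains uncertain. Read totals cannot be recovered, so the depth is unknown and counting intervals were left out.

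The tested genes reach a value of 1 on the deposited scale in 4 or more of the 24 libraries (4875 of 35974). limma 3.58.1 (R 4.3.3, mean-dependent prior) was fitted with 1 mean per genotype and title ending, with contrasts for class 4 and its interactions, Benjamini-Hochberg adjustment and a threshold of 0.05. The fit was tested on simulated data. Named genes are the 12 smallest p-values in each direction, 6 in each direction among genes above 0 in at least 7 of the 8 class 4 libraries, the 5 smallest of each interaction, Anln, housekeeping genes and up to 4 genes per list, in either fit; others (Ttr, Rn7s2, Rorb, Cyb5r3 and the markers of other cells) were chosen after their values were seen. The comparison, its lists and the tests were chosen with earlier results of these data known. Lists are described by counts and medians only. Sequences come from RefSeq (GRCm38.p6), and no coordinates are given for the mm9-based table. Alternatives covered the libraries fitted, the pseudocount (8), filters, a covariate, centring, priors, the replicate block and each class 4 library left out.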

Additional observations from a re-analysis of the deposited data

Results flagged for a closer look

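A value was singled out where the highest or lowest library of a group of 4 lay far from the other 3. The rule was a Dixon's ratio above the critical value for 4 libraries. Chance gives that in about 1 in 20 groups of normally distributed values. That rate does not hold here: many of these genes were chosen by a small p, and where the other 3 libraries are at 0 any value passes, such as that of Ap3b1. In WT the library apart was mostly number 1. It was higher than the other 3 for Fmo1 (8.22), Cps1 (9.22), Apoa1 (13.42), Slc38a10 (6.94), Arfgap2 (6.57), Egfr (7.15), Ces3a (6.89), Dnajb9 (3.80), Arfgef3 (3.18), BC021767 (1.72), Rhbdl3 (1.54), Sh3pxd2b (1.31) and Ap3b1 (1.17). It was lower for Luc7l3, a splicing factor (7.66), and Gm31305 (10.10). It was number 3 for ND1 (11.10) and Eef1a1 (0). In TGA the library apart was number 1 for 4932431P20Rik (3.57), Gm31305 (12.32) and Sephs2, a selenophosphate synthetase (4.69). It was number 2 for ND2 (0) and ND4 (0), and number 3 for Gm40621 (1.98), Fga (8.46) and Hspa5 (3.27). It was number 4 for Kdr (6.79), Rpph1 (12.08), Fbxw8, a ubiquitin ligase subunit (3.85), and Glrx5, an iron-sulphur cluster protein (7.15).

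A second kind of flag is a genotype difference that departs between title endings. For Mir6236 the difference in class 4 exceeded that in class 2 by 2.59 with 22 libraries (adjusted p = 0.0191, limma interaction), and the TGA values of class 4 all sat at the ceiling of 16.41.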

How the results depend on the processing

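Fewer or more calls followed from most choices. With all 24 libraries the count higher in TGA was 0 in place of 1 with the 8 libraries only, a pseudocount of 8, no filter, a filter of 12 libraries, detection in 7 of 8, the detected genes as covariate, no trend, a robust prior and duplicate correlation, 1 with centring or the replicate block, and 5 with 22 libraries. Leaving out 1 library gave 0 to 5 higher and 0 to 3 lower (main 0, and 3 with 22 libraries); the upper values came without WT 1. With 22 libraries the 5 higher became 0 with the 7 libraries only and 2 without a filter, and 1 to 6 on leaving out 1 more library (1 without TGA 3). The 3 lower became 0 with the 7 libraries only, 1 without a filter, with a filter of 12 libraries or with a robust prior, 6 with detection in 6 of 7 (other genes, 0 shared) or no trend, 5 with the replicate block, and 0 to 6 on leaving out a library (0 without TGA 3, 1 without TGA 4, 5 without TGA 1, 6 without WT 2 or WT 3). Within class 4, WT and TGA libraries of the same number did not deviate together (r -0.27, 0.05, -0.12 and -0.10 for numbers 1 to 4). The replicate block thus rests on a number only. These values do not cover libraries of the same genotype and number with different endings. The main fits and their interactions treat those as independent, and only the duplicate correlation alternative linked them.

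The count of genes differing from class 2 was 0 with 24 libraries, 1 with centring or 22 libraries, and 0 to 1 on leaving out a library. With 22 libraries the 1 gene became 0 with a pseudocount of 8, no filter, a filter of 12 libraries, detection in 6 of 7, the covariate, no trend or a robust prior, and 0 to 2 on leaving out a library (0 without WT 2, TGA 2 or TGA 3, 2 without TGA 4). Against class 8 the count was 0 in all of these. The cause of these changes was not tested, except that fewer libraries were fitted where some were left out. None of the 8 genes called with 22 libraries changed sign. Of the other genes with printed values, Ass1 ran from -0.15 to 2.37 and Malat1 from -0.21 to 0.74 on leaving out a library with 24 libraries, Kdr from -0.84 to 1.48 with 24 and from -0.22 to 2.04 with 22, and Ttr was 0.038 with the replicate block and 22 libraries. Over the alternatives with 22 libraries, adjusted p-values ran from 0.0012 to 0.464 for Apoa1, 0.00122 to 0.0917 for Cps1, 0.00178 to 0.0953 for Fmo1, 0.00292 to 0.141 for Aldh1l1 and 0.00647 to 0.104 for Kcna2. Of 683 list medians from alternatives to the fit with 24 libraries, 14 moved by more than the spread between libraries. That spread was taken with WT 1 included, so the low count does not show that the lists are stable without it.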

Other observations

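Some gene groups outside the comparisons above had values in most class 4 libraries. Nuclear long non-coding RNAs had higher values in TGA for 4 of 4 tested genes in both fits (medians 0.72 with 24 and 1.39 with 22 libraries), with 0 calls. Neat1, the scaffold RNA of paraspeckles, stood at 8.41, 8.18, 4.28 and 7.43 in WT and at 9.10, 8.25, 8.78 and 8.07 in TGA, and the groups overlapped. Malat1, a nuclear speckle RNA, stood at 9.57, 8.30, 6.72 and 8.37 in WT and at 8.54, 8.44, 7.87 and 9.31 in TGA, and its difference of 0.30 with 24 libraries was -0.21 without WT 3. Ifit1, an interferon-induced gene, stood at 6.58, 9.64, 8.77 and 9.47 in WT and at 8.11, 7.44, 6.69 and 0 in TGA, where WT 1 was the lowest of WT (adjusted p = 0.563 with 22 libraries, limma).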
